A study of Mus musculus with 8 samples.

Results

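The comparison described here is that of GSTM1 knockdown (KD) with control KD in primary mouse cortical astrocytes after stimulation with TNF-α, and it rests on 4 of the 8 RNA-seq libraries, 2 in each group. The cells were mixed glia from the cortices of neonatal C57BL/6 mice, with about 2 brains pooled in each flask. They were infected with a pLKO-puro lentivirus carrying the short hairpin RNA (shRNA) for Gstm1 (GSTM1 KD) or a non-silencing shRNA (control KD), and infected cells were selected with puromycin, so both groups carried a vector and had been through selection. The flasks were shaken to remove loosely attached cells, and cells carrying CD11b, a microglial surface protein, were depleted before plating. All 4 cultures received TNF-α at 50 ng/ml for 6 h, and the other 4 libraries, not stimulated, enter only where they are named. The question addressed was which part of the transcriptional program of TNF-α-stimulated astrocytes differed when GSTM1 was reduced. The study calls the 2 samples of a group biological replicates and does not say which pups, cultures or infections they shared, so the p-values measure the spread between these samples only.

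GSTM1 is a mu-class glutathione S-transferase, a cytosolic enzyme that joins glutathione to electrophilic compounds and is known to bind signalling kinases. TNF-α acts on its receptors TNFR1 and TNFR2, which assemble adaptor proteins, ubiquitin ligases and kinases. These activate the IκB kinase complex, which frees the transcription factor NF-κB, and the MAP kinases, which activate AP-1. In astrocytes this induces chemokines, cytokines, adhesion molecules and the enzymes of prostaglandin synthesis. Interferon-β made by stimulated cells can act on the same cells through its receptor and induce antiviral genes.

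The expected counts of the 4 libraries summed to between 17349676 and 23019519, and 19371 to 20686 of 54146 listed genes had a count. Levels are given as CPM, counts scaled to the same total after edgeR's TMM normalization, and a gene with 3 counts stood at 0.129 to 0.179 CPM. This floor covers counting error only. Gstm1 (ENSMUSG00000058135.12, on the minus strand of chromosome 3 of GRCm38 from 108012255 to 108017973) stood at 209 and 387 CPM in control KD and 23.9 and 22.7 CPM in GSTM1 KD. Both libraries labelled GSTM1 KD thus lay below both control KD libraries (log2 fold change -3.68, standard error 0.315, adjusted p = 0.00981). The test was the quasi-likelihood test of edgeR with adjustment by Benjamini and Hochberg, which also gave the adjusted p-values that follow. All 12 markers of astrocytes on the list used were tested. Their summed level was 3429 and 7475 CPM in control KD and 6798 and 9499.7 CPM in GSTM1 KD, and none of the 4 libraries lacked any of them. Control KD replicate 1 was the lowest, above control KD replicate 2 for 1 of the 12. Of 12 microglial markers 5 had enough counts for a test, with a summed level over all 12 of 14.5, 6.79, 7.61 and 4.26 CPM in the same order. None of these 12 was at 0 in all libraries and 2 had at most 3 counts in each. The replicates of both groups differed by more than sampling noise, with a chi-square per degree of freedom over genes of 37.3 in control KD and 15.9 in GSTM1 KD. Whether strand was used in counting is not stated in the sources used here, so antisense neighbours may contribute reads, and near-identical family members may share them. Of the 246 tested genes named here, exons of 53 overlap an annotated gene on the opposite strand and exons of 15 one on the same strand, among them Irf9 with Rnf31, Serpinb2 with Serpinb10 and Cntf with Zfp91, so these counts carry that doubt. A single number in parentheses after a gene is its log2 fold change.

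Of 14593 genes tested, 2360 passed the adjusted threshold of 0.05, or 16.2%. In GSTM1 KD 1059 were higher (7.26%) and 1301 lower (8.92%). The median log2 fold change over all genes tested was -0.01. Of the genes that passed, 466 were higher and 406 lower by at least 1 on the log2 scale, and 121 were higher and 45 lower by at least 2. The CPM values of the groups did not overlap for 66.6% of all genes tested, so a lack of overlap alone carries little weight. The number of calls changed with the library left out. In edgeR 0 genes passed without GSTM1 KD replicate 1 (3273 at an unadjusted p under 0.05), so that no single gene described here kept its call, and 94 passed without GSTM1 KD replicate 2. The cause was not tested. Without control KD replicate 1 2703 genes passed (18.3% of those tested), and without control KD replicate 2 5028 (32.9%), which is the background for the counts given without that library. With library size as the only scaling 1350 genes were higher and 1163 lower, in the fit of all 8 libraries 1568 and 1548, and on log2(TPM + 1) with limma 866 and 699, so that the higher genes were the majority there. Of these only the first changed the scaling alone. The lower genes stayed the majority with DESeq2 size factors in edgeR (1084 and 1291) and in DESeq2 itself (1299 and 1536).

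**Figure D1:**
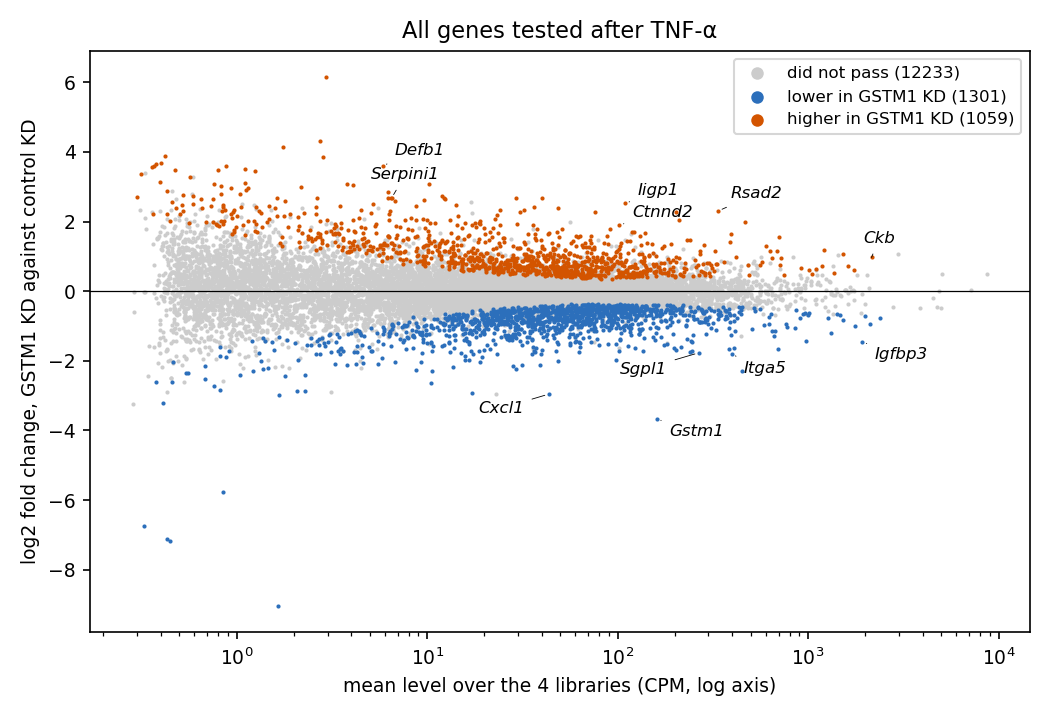
Log2 fold change of GSTM1 KD against control KD (vertical axis) against the mean level over the 4 TNF-α libraries in CPM (horizontal log axis) for the 14593 genes tested. The 1059 higher genes are orange, the 1301 lower genes blue. Genes at the vertical extremes have few counts in one group.

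The 10 higher genes of largest fold change included genes of epithelia and of innate defence. Cldn2, a claudin of leaky tight junctions, had counts of 1 and 6 in control KD against 62 and 67 in GSTM1 KD (log2 fold change 4.14, standard error 0.690, adjusted p = 0.0221). Shisa9, which encodes an auxiliary protein of AMPA receptors, stood at 1.08 and 3.40 CPM in control KD and 13.8 and 22.7 CPM in GSTM1 KD (log2 fold change 3.07, adjusted p = 0.0244). Tmem163, a zinc transporter gene, stood at 0.475 and 1.19 against 5.66 and 7.91 CPM in the same order (log2 fold change 3.07, adjusted p = 0.0189). In these 3 genes both GSTM1 KD libraries lay above both control KD libraries, and control KD replicate 2 above control KD replicate 1. Markers of the choroid plexus, an epithelium of the ventricles, summed to 4.18 and 6.08 CPM in control KD and 9.15 and 12.1 CPM in GSTM1 KD over 12 genes, of which 5 were tested and 4 had at most 3 counts in every library. Their part in these differences was not tested. Phf11b, an interferon-inducible gene, had counts of 5 and 4 in control KD against 63 and 20 in GSTM1 KD, and its replicates in GSTM1 KD differed as those of the interferon-stimulated genes described below did (log2 fold change 3.12, adjusted p = 0.0338). Defb1, which encodes a β-defensin, was also among the 10 (3.60). RP23-83O23.5 (ENSMUSG00000078894.9) had counts of 0 and 3 in control KD against 140 and 95 in GSTM1 KD, so that control KD lay at or under the floor of 3 counts and no fold is given. Without stimulation it had 83 and 133 counts in control KD against 344 and 28 in GSTM1 KD, and its call ended with effective lengths as offsets and in limma. Another 3 are listed by clone names, RP23-152I6.3 (4.31), RP23-14F5.8 (3.51) and RP23-103C13.2 (3.46), and the call of RP23-14F5.8 ended in limma on log2(TPM + 1). With control KD replicate 1 left out the log2 fold change was 3.17 for Cldn2, 2.41 for Shisa9 and 3.61 for RP23-152I6.3. The log2 fold change was 4.08 for Shisa9, 3.83 for Tmem163, 4.37 for Defb1 and 5.27 for RP23-152I6.3 without control KD replicate 2. For Cldn2 that fit left 1 count in control KD, under the floor of 3 counts, so no fold is given. Leaving out GSTM1 KD replicate 1 gave a log2 fold change of 2.29 for Phf11b.

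Among genes with a mean of at least 1 CPM, those with the largest decreases beside Gstm1 included Xirp1, Esam and Saa3. Xirp1, which encodes an actin-binding protein of adherens junctions in striated muscle, had counts of 79 and 43 in control KD against 9 and 6 in GSTM1 KD (log2 fold change -2.98, standard error 0.389, adjusted p = 0.0144). Esam, an adhesion molecule of endothelial junctions and platelets, had counts of 63 and 56 in control KD against 10 and 12 in GSTM1 KD (log2 fold change -2.43, standard error 0.378, adjusted p = 0.0193). Saa3, an acute phase serum amyloid gene, had counts of 40 and 30 in control KD against 9 and 4 in GSTM1 KD (log2 fold change -2.42, adjusted p = 0.0251). In each of the 3 both GSTM1 KD libraries were below both control KD libraries. Endothelial markers, Esam among them, summed to 46.9 and 87.1 CPM in control KD and 30.6 and 36.5 CPM in GSTM1 KD, with 1 of 12 at 0 in all 4 libraries. Of the 7 tested 1 was lower, 14.3% against 8.92% of all genes. The part of these markers was not tested. Cxcl1, Cxcl2, Csf2, the potassium channel gene Kcnk3 (-2.88) and Serpinb2 (-2.63), which encodes plasminogen activator inhibitor 2, were the other coding genes of this group. On log2(TPM + 1) with limma the calls of Xirp1 and Kcnk3 ended, and that of Xirp1 also with effective lengths as offsets. Without control KD replicate 1 the log2 fold change was -3.49 for Kcnk3. With control KD replicate 2 left out the log2 fold change was -1.89 for Kcnk3. The log2 fold change was -3.27 for Serpinb2 without GSTM1 KD replicate 1. Leaving out GSTM1 KD replicate 2 gave a log2 fold change of -3.48 for Kcnk3. RP24-175C20.18 (ENSMUSG00000110980.1), a lincRNA, had counts of 73 and 58 in control KD against 0 and 0 in GSTM1 KD, which is at least 21.7-fold lower against a floor of 3 counts in each library, but it also had 73 and 0 counts in each unstimulated group, and its call ended when all 8 libraries were fitted, as Saa3 did not. The higher nuclear genes with the largest difference in mean CPM included Ckb, the brain creatine kinase, at 1185 and 1729.9 CPM in control KD and 2814 and 2885 CPM in GSTM1 KD (log2 fold change 0.97, adjusted p = 0.0364). The lower ones were Igfbp3, at 3042 and 2617 against 1057 and 994 CPM (log2 fold change -1.46, adjusted p = 0.0106), Tubb2b, a β-tubulin, at 1676 and 2010.5 against 891 and 709.5 CPM (log2 fold change -1.20, adjusted p = 0.0173), and the actin-associated Acta2, Flna and Tagln. Of genes outside the lists, 2 were chosen after their values were seen. Tnfaip2, a gene induced by TNF-α whose protein forms membrane nanotubes, had 12263, 16352, 3446 and 2650 counts in the order of the libraries, control KD first (log2 fold change -2.30, standard error 0.295, adjusted p = 0.0140), and Sorl1, which encodes a sorting receptor of the amyloid precursor protein, had 3282, 3948, 13795 and 15420 (log2 fold change 1.98, standard error 0.288, adjusted p = 0.0175). For both the GSTM1 KD libraries lay on one side of both control KD libraries.

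Genes of the TNF receptor complex and the IκB kinase pathway differed in both directions. Of 26 tested, 8 were lower and 2 higher, 38.5% against 16.2% of all genes, with a median log2 fold change of -0.11 (counts of 9 and 2 with control KD replicate 1 left out and of 10 and 4 with replicate 2 left out, where the median was -0.18 and -0.02). The receptor gene Tnfrsf1a stood at 103 and 121 CPM in control KD and 104 and 113 CPM in GSTM1 KD (log2 fold change -0.06, adjusted p = 0.766), and Tnfrsf1b, TNFR2, at 37.2 and 25.4 against 20.6 and 13.3 CPM (log2 fold change -0.88, adjusted p = 0.0811). Among the adaptors, Tab2, which links the kinase TAK1 to ubiquitin chains, stood at 146 and 159.9 against 77.4 and 71.4 CPM (log2 fold change -1.04, standard error 0.105, adjusted p = 0.0109), and its relative Tab3 at 32.5 and 24.3 against 13.6 and 13.18 CPM (log2 fold change -1.09, adjusted p = 0.0215). Map3k7, which encodes TAK1 itself, was lower by less (-0.58). Ripk1, the kinase recruited to TNFR1, stood at 63.0 and 61.5 against 36.7 and 36.2 CPM (log2 fold change -0.77, adjusted p = 0.0131). Birc3, the ubiquitin ligase cIAP2 and itself an NF-κB target, stood at 79.7 and 73.6 against 41.3 and 34.9 CPM (log2 fold change -1.01, standard error 0.122, adjusted p = 0.0129). Both libraries of each group were close to each other in these genes, and the groups were apart. Chuk, the IKKα subunit, was lower (-0.74, adjusted p = 0.0164), whereas Ikbkb, the IKKβ subunit, stood at 30.5 and 32.8 against 37.8 and 41.6 CPM and did not pass (adjusted p = 0.108). Of the linear ubiquitin machinery, Sharpin, a subunit of the ligase, and Otulin, which removes such chains, were lower (-0.60 and -0.81). The 2 higher members were Traf3, an inhibitor of non-canonical NF-κB signalling, at 79.8 and 93.3 against 174 and 190.3 CPM (log2 fold change 1.07, standard error 0.120, adjusted p = 0.0116), and Cyld, a deubiquitinase that limits NF-κB activation, at 60.95 and 70.9 against 98.6 and 112 CPM (log2 fold change 0.67, adjusted p = 0.0258). The calls of Tab3, Chuk, Map3k7 and Sharpin ended in limma on log2(TPM + 1).

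Of 14 genes of NF-κB subunits and inhibitors tested, 4 were lower (28.6% against 8.92% of all genes) and 0 higher, with a median of -0.44 (-0.28 without control KD replicate 2, where 4 were lower and 1 higher). Rela, the p65 subunit, stood at 139 and 155 CPM in control KD and 88.5 and 84.8 CPM in GSTM1 KD (log2 fold change -0.76, standard error 0.103, adjusted p = 0.0152). Tnfaip3, the ubiquitin-editing enzyme A20 that ends TNF-α signalling, stood at 291 and 210.2 against 143 and 129 CPM (log2 fold change -0.88, standard error 0.176, adjusted p = 0.0315), and its call ended when all 8 libraries were fitted. Tnip1, the A20-binding protein, stood at 172 and 183 against 119 and 118 CPM (log2 fold change -0.58, adjusted p = 0.0205). For all 3 the libraries of GSTM1 KD were close to each other and below both control KD libraries. Nfkb1, the p105 precursor of p50, was at 114 and 196 against 92.8 and 92.9 CPM and did not pass (adjusted p = 0.101), with control KD replicate 2 above the rest. Nfkbia, the inhibitor IκBα and a rapid target of NF-κB, stood at 395 and 435 against 389 and 407 CPM, a log2 fold change of -0.06 with a standard error of 0.111 (adjusted p = 0.731). Rel, the c-Rel subunit, pointed the other way without passing (0.71, adjusted p = 0.0580).

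Chemokine genes that passed were lower in the fit of the 4 libraries. Of 28 listed, 19 were tested, and 6 were lower and 0 higher, 31.6% against 8.92% of all genes, with a median of -0.62 (-0.32 without control KD replicate 1 and -0.98 without GSTM1 KD replicate 1). Lower and higher members gave counts of 7 and 2 with control KD replicate 1 left out and of 9 and 2 with replicate 2 left out. The neutrophil-attracting chemokine genes Cxcl1 and Cxcl2 stood at 33.0 and 121 CPM in control KD and 9.11 and 10.7 CPM in GSTM1 KD for Cxcl1 and at 22.9 and 37.7 against 4.12 and 3.76 CPM for Cxcl2 (-2.96 and -2.93). For Cxcl1 control KD replicate 2 was well above replicate 1. Without control KD replicate 1 the log2 fold change was -3.62 for Cxcl1. With control KD replicate 2 left out the log2 fold change was -1.73 for Cxcl1. Ccl20, which attracts CCR6-bearing lymphocytes, stood at 15.9 and 14.0 against 4.21 and 3.08 CPM (log2 fold change -2.03, standard error 0.230, adjusted p = 0.0119). The monocyte chemokine Ccl7 stood at 355 and 379 against 139.7 and 80.9 CPM (log2 fold change -1.73, standard error 0.260, adjusted p = 0.0180), and its neighbour Ccl2 at 981 and 1088 against 578 and 436 CPM, a smaller difference (-1.03) that was not called when all 8 libraries were fitted. Cxcl16, a membrane-bound chemokine, stood at 65.8 and 62.9 against 30.4 and 23.3 CPM (log2 fold change -1.26, adjusted p = 0.0129). Not every chemokine followed. Cxcl10, an interferon-induced ligand of CXCR3, stood at 1421 and 1621 against 2479 and 1698 CPM (log2 fold change 0.46, adjusted p = 0.179), Ccl5 at 22.6 and 30.2 against 19.4 and 14.8 CPM (log2 fold change -0.62, adjusted p = 0.0973), and Cxcl12, a constitutive chemokine, at 31.7 and 22.8 against 40.1 and 43.1 CPM (log2 fold change 0.61, adjusted p = 0.0719). Cxcl3, Ccl3 and Ccl4 lay under the filter on low counts. With no filter in edgeR Ccl3 passed as lower (log2 fold change -3.78, adjusted p = 0.000396). Cxcl3 and Ccl4 did not pass there (-1.73 and -2.14, adjusted p = 0.113 and 0.333). DESeq2 gave none of these an adjusted p.

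The 200 bases before the annotated start of Cxcl1, Cxcl2 and Ccl20, chosen because the promoters of these chemokine genes hold a match to the NF-κB motif, are given from RefSeq promoters (GRCm38.p6), 5′ to 3′ on the gene's strand, with matches to the consensus NF-κB motif in either orientation in capitals. The stretches are chr5:90891045-90891244 and chr5:90903699-90903898 for the first pair and chr1:83116566-83116765 for Ccl20, all on the plus strand.
Cxcl1: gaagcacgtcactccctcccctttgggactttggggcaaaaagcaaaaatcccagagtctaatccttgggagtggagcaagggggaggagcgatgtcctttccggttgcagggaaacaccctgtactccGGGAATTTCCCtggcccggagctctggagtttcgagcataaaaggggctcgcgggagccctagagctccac
Cxcl2: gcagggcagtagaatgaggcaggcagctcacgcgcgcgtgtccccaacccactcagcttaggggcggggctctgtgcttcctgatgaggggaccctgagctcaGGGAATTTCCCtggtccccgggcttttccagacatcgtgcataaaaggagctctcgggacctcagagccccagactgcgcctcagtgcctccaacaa
Ccl20: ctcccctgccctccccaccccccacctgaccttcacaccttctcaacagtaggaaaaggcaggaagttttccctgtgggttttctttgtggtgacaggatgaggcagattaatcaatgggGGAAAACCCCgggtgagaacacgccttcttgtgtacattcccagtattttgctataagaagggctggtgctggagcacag
The promoters of Csf2, Icam1, Sele and Ptgs2 held no match. The first match shown began 71, 97 and 80 bases before the start, and in Cxcl1 and Cxcl2 it overlaps a second match on the other strand. Of the 14593 genes tested 10006 matched a RefSeq promoter by symbol, some of them several. Over windows of 250 bases before to 50 bases after the start, the motif was found in 9 of 22 promoters (40.9%) of the 18 genes that were lower on the NF-κB, chemokine, cytokine, adhesion and prostaglandin lists and had a promoter. It was in 10.7% of the 12908 promoters of the genes tested and in 11.9% of the 1297 promoters of all lower genes. The AP-1 motif TGANTCA was in 6 of the 22 (27.3%) and in 5.13% of promoters of genes tested, and the CRE motif TGACGTCA in 1 and in 3.06%. A match is a description of the letters only, and the genes were picked from these data.

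Cytokine genes had the largest share of lower members of the 60 lists. Of 17 tested, 9 were lower and 3 higher (52.9% lower and 17.6% higher, against 8.92% and 7.26% of all genes, and counts of 10 and 2 with control KD replicate 1 left out and of 9 and 5 with replicate 2 left out), with a median of -0.77. Factors that act on myeloid cells were among the lower ones. Csf1, the main growth factor of microglia, stood at 2495 and 2469.8 CPM in control KD and 1573 and 1453 CPM in GSTM1 KD (log2 fold change -0.71, standard error 0.127, adjusted p = 0.0251). Csf2 (GM-CSF) stood at 4.05 and 4.05 against 0.634 and 0.449 CPM (-2.87). Il23a, the p19 subunit of interleukin-23, stood at 8.71 and 10.6 against 3.76 and 2.64 CPM (log2 fold change -1.58, standard error 0.268, adjusted p = 0.0229). The groups were apart and the replicates close in each. Lif, Clcf1, Il6 and Il11 belong to the cytokines that signal through gp130. Lif stood at 267 and 252 against 102 and 77.8 CPM (log2 fold change -1.53, standard error 0.152, adjusted p = 0.0108), Clcf1 at 165 and 152 against 79.1 and 68.5 CPM (log2 fold change -1.10, standard error 0.115, adjusted p = 0.0111) and Il6 at 15.5 and 14.1 against 7.20 and 3.25 CPM (log2 fold change -1.49, adjusted p = 0.0490). Il11 was lower (-1.16, adjusted p = 0.0397), and its call ended in the fit of all 8 libraries and, with that of Il6, in limma on log2(TPM + 1). The log2 fold change was -2.17 for Il6 without GSTM1 KD replicate 1. Cntf, another member of this family, stood at 12.4 and 24.2 against 33.2 and 41.2 CPM and did not pass (adjusted p = 0.0806). Tnfsf9, the 4-1BB ligand, was lower (-1.54). The higher cytokines were Tnfsf10, the death ligand TRAIL, at 2.59 and 2.80 against 22.1 and 10.9 CPM (log2 fold change 2.62, standard error 0.387, adjusted p = 0.0179), Il15, at 2.46 and 3.34 against 8.20 and 5.95 CPM (log2 fold change 1.299, adjusted p = 0.0420), and Il18, at 1.85 and 3.34 against 6.34 and 6.84 CPM (log2 fold change 1.36, adjusted p = 0.0495). GSTM1 KD replicate 1 of Tnfsf10 was above replicate 2, and the call of Il18 ended with effective lengths as offsets. Leaving out GSTM1 KD replicate 1 gave a log2 fold change of 2.03 for Tnfsf10. Tnf itself had counts of 17 and 5 in control KD against 2 and 1 in GSTM1 KD and lay under the filter on low counts. With no filter its adjusted p in edgeR was 0.0261, as lower, and DESeq2 gave it no adjusted p (unadjusted p = 0.0685).

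Icam1 and Sele, which capture leukocytes from the blood, were among the lower adhesion genes. Over the list, 5 of 17 were lower and 2 higher (29.4% lower and 11.8% higher, against 8.92% and 7.26% of all genes, counts of 6 and 2 with control KD replicate 1 left out and of 8 and 6 with replicate 2 left out). Icam1, the ligand of the integrin LFA-1, stood at 379.8 and 431 CPM in control KD and 198 and 151 CPM in GSTM1 KD (log2 fold change -1.22, standard error 0.164, adjusted p = 0.0152). Sele, E-selectin, stood at 34.8 and 61.8 against 10.1 and 10.2 CPM (log2 fold change -2.25, standard error 0.291, adjusted p = 0.0143), and Selp, P-selectin, at 52.0 and 119 against 33.9 and 33.2 CPM without passing (adjusted p = 0.0639). Cd44, the hyaluronan receptor, was lower (-0.67, adjusted p = 0.0307), and Vcam1 stood at 2026 and 2571 against 1567 and 1414 CPM and did not pass (log2 fold change -0.62, adjusted p = 0.0574). Both control KD values of each of these 5 genes were above both GSTM1 KD values. The higher members were Nectin1 (0.88) and Cd47, the ligand of the phagocytic checkpoint receptor SIRPα (0.68). Of 12 genes of prostaglandin and nitric oxide synthesis and response, 3 were lower and 1 higher (25% and 8.33% against 8.92% and 7.26%, and counts of 6 and 1 with control KD replicate 1 left out and of 3 and 1 with replicate 2 left out). Ptgs2, cyclooxygenase 2, stood at 331 and 335 against 128 and 127 CPM (log2 fold change -1.38, standard error 0.0968, adjusted p = 0.00981), with replicates that hardly differed. The terminal synthase genes Ptges, for prostaglandin E2, and Ptgis, for prostacyclin, stood at 15.4 and 23.2 against 6.89 and 6.90 CPM and 7.59 and 6.02 against 1.31 and 1.91 CPM (-1.48 and -2.09). The receptor gene Ptger1 was higher at 1.16 and 1.01 against 4.12 and 4.71 CPM (log2 fold change 2.01, adjusted p = 0.0179). Among the complement genes 0 of 18 were lower and 1 was higher (5.56% against 16.2%, and counts of 0 and 1 with control KD replicate 1 left out and of 1 and 4 with replicate 2 left out), a call that ended in DESeq2 and whenever 1 library was left out. The call also ended with effective lengths as offsets and in limma. C4b, at 8.07 and 19.3 against 21.4 and 43.9 CPM, did not pass (adjusted p = 0.133). The microglial markers given above were at most 14.5 CPM in sum in any library and were highest in control KD replicate 1. The 5 of these markers that were tested had a median log2 fold change of -0.68, with 1 above 0. Most of those under the filter on low counts were lower with no filter in edgeR. Trem2 and Itgam passed as lower (log2 fold change -2.54 and -2.10, adjusted p = 0.00764 and 0.00800). Aif1, Tyrobp and Ptprc were below 0 without passing (-3.175, -1.30 and -1.11). Only Cx3cr1 and P2ry12 were above 0, also without passing (1.34 and 0.52). DESeq2 gave none of these an adjusted p. The part of microglial transcripts in the lower inflammatory genes was not tested.

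**Figure D2:**
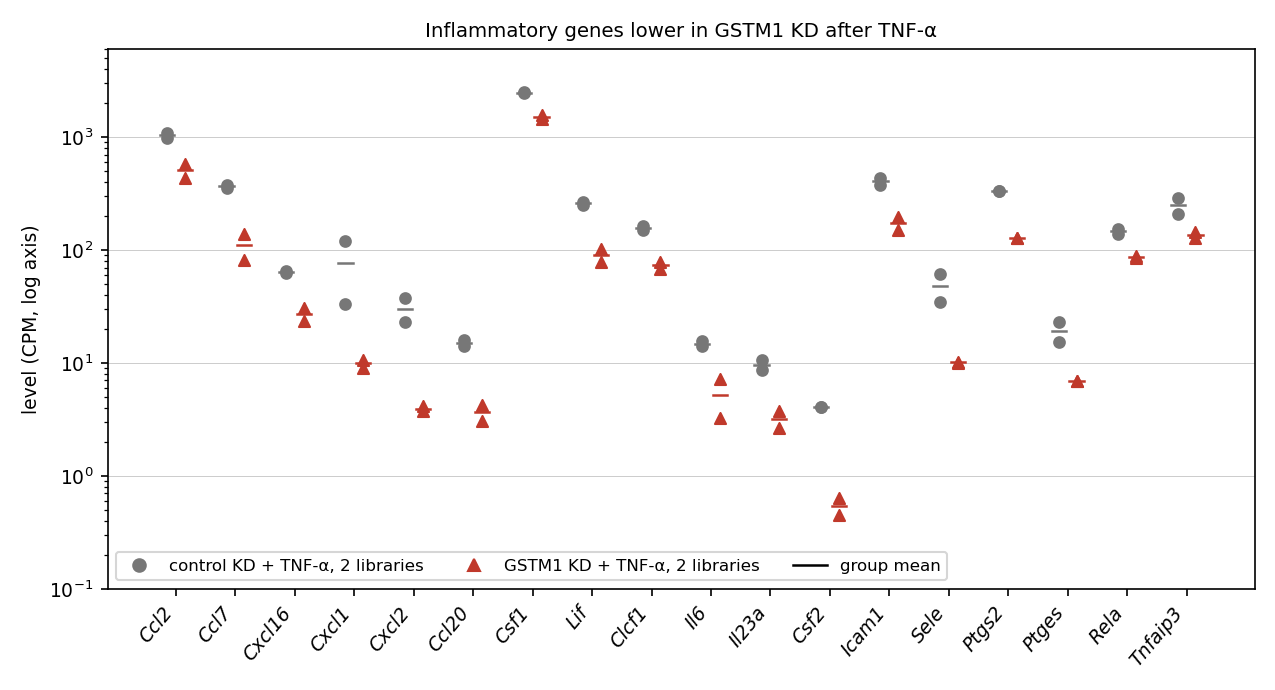
Level in CPM (log axis) of 18 inflammatory genes that were lower in GSTM1 KD after TNF-α, with grey circles for the 2 control KD libraries, red triangles for the 2 GSTM1 KD libraries and bars at the group means. Every triangle lies below both circles of its gene, and Cxcl1 shows the widest gap between the control KD libraries, 33.0 and 121 CPM.

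Immediate early genes and genes of AP-1 were split. Of 28 tested, 6 were lower and 3 higher (21.4% lower and 10.7% higher, against 8.92% and 7.26% of all genes). With effective lengths as offsets 5 were lower and 0 higher, and in limma on log2(TPM + 1) 3 were lower and 1 higher. Ier5, a stress-induced regulator, stood at 165 and 159 CPM in control KD and 73.3 and 69.6 CPM in GSTM1 KD (log2 fold change -1.18, standard error 0.0947, adjusted p = 0.00981), and Ier3, a survival gene induced by NF-κB, at 182 and 148 against 75.3 and 62.3 CPM (log2 fold change -1.26, adjusted p = 0.0129). Klf4, a zinc finger transcription factor, stood at 47.7 and 30.9 against 16.2 and 13.24 CPM (log2 fold change -1.42, standard error 0.241, adjusted p = 0.0229), and Myc was lower as well (-1.04, adjusted p = 0.0401). On the other side stood Jun, at 248.9 and 272 against 352 and 348 CPM (log2 fold change 0.43, adjusted p = 0.0482), and Atf3, a repressor of inflammatory genes, at 18.1 and 19.5 against 28.05 and 32.3 CPM (log2 fold change 0.68, adjusted p = 0.0317). Junb, at 248 and 280.4 against 207 and 214 CPM, did not pass (adjusted p = 0.0977). Of 14 feedback genes of ERK signalling tested, 2 were lower and 1 higher (21.4% in all against 16.2% of all genes). They included Spry1, lower at 29.6 and 31.5 against 9.52 and 11.6 CPM (log2 fold change -1.54, standard error 0.154, adjusted p = 0.0109), and Dusp7, a cytosolic ERK phosphatase, lower at 64.6 and 58.0 against 31.1 and 28.6 CPM (log2 fold change -1.04, standard error 0.114, adjusted p = 0.0112). With effective lengths as offsets the calls of Jun and Atf3 ended, on log2(TPM + 1) with limma those of Atf3 and Myc, and in the fit of all 8 libraries that of Ier3.

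Genes of interferon signalling and of the sensors upstream differed in both directions. Of the 21 signalling genes tested, 6 were higher and 3 lower (28.6% higher and 14.3% lower, against 7.26% and 8.92% of all genes, and counts of 7 and 4 with control KD replicate 1 left out and of 9 and 3 with replicate 2 left out). Stat2, a transcription factor that type I interferon activates, stood at 56.9 and 66.2 CPM in control KD and 183 and 103 CPM in GSTM1 KD (log2 fold change 1.22, standard error 0.276, adjusted p = 0.0413), and its partner Irf9 at 59.4 and 52.2 against 133 and 102 CPM (log2 fold change 1.07, standard error 0.158, adjusted p = 0.0178). Irf7, which amplifies interferon production, stood at 27.6 and 22.9 against 96.9 and 50.3 CPM (log2 fold change 1.54, standard error 0.317, adjusted p = 0.0337). Usp18, the protease that damps the type I receptor, stood at 46.8 and 41.7 against 179 and 84.7 CPM (log2 fold change 1.57, adjusted p = 0.0387). In these 4 genes the control KD libraries lay together, GSTM1 KD replicate 2 above them and GSTM1 KD replicate 1 higher still. The receptor subunit Ifnar1 and the kinase Jak2 were lower (-0.49 and -0.44). The third lower member was Irf8, a transcription factor of myeloid cells, which had counts of 23 and 14 in control KD against 4 and 3 in GSTM1 KD and the decrease of greatest size on the list (log2 fold change -2.35, adjusted p = 0.0309). Irf1, at 169.5 and 188 against 207 and 173 CPM, had values that overlapped between groups (adjusted p = 0.656). The ligand gene Ifnb1 stood at 0.302 and 0.0596 against 1.13 and 0.505 CPM, near the floor in control KD, and did not pass (adjusted p = 0.115). Of the sensors of nucleic acids and microbes, 4 of 17 were higher and 2 lower (35.3% against 16.2% of all genes in both directions, and counts of 5 and 1 with control KD replicate 1 left out and of 7 and 2 with replicate 2 left out). The RNA sensors Ddx58 (RIG-I), Ifih1 (MDA5) and Tlr3 were higher (1.35, 1.26 and 1.06), and so was Zbp1, a sensor of Z-form nucleic acids, at 2.37 and 1.97 against 14.5 and 6.84 CPM (log2 fold change 2.29, adjusted p = 0.0262). The lower sensors were Nlrp3, of the inflammasome, with counts of 38 and 17 in control KD against 5 and 3 in GSTM1 KD (log2 fold change -2.71, adjusted p = 0.0275), and Tmem173 (STING), with counts of 30 and 25 in control KD against 10 and 5 in GSTM1 KD (log2 fold change -1.88, adjusted p = 0.0413). The microglial markers given above were highest in control KD replicate 1, and their part in the decreases of Irf8 and Nlrp3 was not tested. The adaptor Myd88, at 31.2 and 33.0 against 37.5 and 29.3 CPM, did not pass (adjusted p = 0.807). The calls of Ifnar1, Jak2, Irf8, Tlr3, Nlrp3 and Tmem173 ended in limma on log2(TPM + 1), those of Jak2, Irf8 and Tmem173 also with effective lengths as offsets, that of Jak2 in the fit of all 8 libraries and that of Tmem173 in DESeq2, which gave Irf8 and Nlrp3 no adjusted p. Without GSTM1 KD replicate 1 the log2 fold change was 0.95 for Usp18 and 1.66 for Zbp1.

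Interferon-stimulated effectors had the largest share of higher members of the 60 gene lists used. Of 60 tested, 31 were higher and 0 lower, 51.7% against 7.26% of all genes. The median log2 fold change was 1.07, and 57 of the 60 were above 0. Their summed level was 3768 and 5146 CPM in control KD and 11591 and 7216 CPM in GSTM1 KD. GSTM1 KD replicate 1 was above replicate 2 for 58 of the 60, with a median ratio of 1.72. Without replicate 1 of GSTM1 KD the median was 0.70 and 0 members passed, and without its replicate 2 the median was 1.37 and 22 passed as higher. The genes of the IFIT family, whose proteins bind viral RNA, moved together. Ifit1 stood at 202 and 184 CPM in control KD and 789 and 406 CPM in GSTM1 KD (log2 fold change 1.63, adjusted p = 0.0288), Ifit3 at 311 and 402 against 1329 and 771 CPM (log2 fold change 1.56, standard error 0.286, adjusted p = 0.0264), Ifit3b at 79.0 and 85.7 against 436 and 239 CPM (log2 fold change 2.04, adjusted p = 0.0169) and Ifit2 at 77.4 and 89.8 against 219.6 and 132 CPM (log2 fold change 1.07, adjusted p = 0.0433). These paralogs may share reads. Rsad2 (viperin), an enzyme that makes a chain-terminating nucleotide, stood at 98.5 and 129 against 787 and 336 CPM (log2 fold change 2.30, standard error 0.412, adjusted p = 0.0252), and its neighbour Cmpk2, a nucleotide kinase gene, at 55.3 and 84.0 against 461 and 214 CPM (log2 fold change 2.28, standard error 0.403, adjusted p = 0.0250). Isg15, the ubiquitin-like modifier, stood at 68.1 and 50.8 against 193 and 103 CPM (log2 fold change 1.31, adjusted p = 0.0464), a call that ended in limma on log2(TPM + 1). With GSTM1 KD replicate 1 left out the log2 fold change was 1.63 for Cmpk2 and 1.58 for Rsad2.

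The immunity-related GTPases, which attack vacuoles of intracellular microbes, included the largest log2 fold change of the list, that of Iigp1. It stood at 32.0 and 33.2 CPM in control KD and 256 and 117 CPM in GSTM1 KD (log2 fold change 2.52, standard error 0.369, adjusted p = 0.0177), Tgtp1 at 9.71 and 13.3 against 81.5 and 40.7 CPM (log2 fold change 2.42, adjusted p = 0.0185) and Irgm1 at 117 and 127 against 435 and 242 CPM (log2 fold change 1.47, adjusted p = 0.0279). Among the guanylate-binding proteins Gbp3 was higher at 77.0 and 118 against 231 and 188 CPM (log2 fold change 1.10, adjusted p = 0.0335), but it was not called when all 8 libraries were fitted, and Gbp2, at 235 and 599 against 718 and 611 CPM, did not pass (adjusted p = 0.297). Mx1 and Mx2, dynamin-like antiviral GTPases, stood at 6.34 and 4.17 against 32.4 and 15.1 CPM and 10.8 and 6.61 against 49.8 and 23.8 CPM (2.16 and 2.07), and the call of Mx2 ended in limma on log2(TPM + 1). In each of these genes GSTM1 KD replicate 1 was the highest library and GSTM1 KD replicate 2 the next, though for Gbp2 the latter was close to control KD replicate 2. The log2 fold change was 1.86 for Iigp1, 1.53 for Mx1 and 1.46 for Mx2 without GSTM1 KD replicate 1. Smaller differences with closer replicates were seen for Lgals3bp, a secreted glycoprotein, at 75.9 and 78.5 against 153 and 135 CPM (log2 fold change 0.90, standard error 0.106, adjusted p = 0.0124), Ifi27, at 90.5 and 87.1 against 139 and 147 CPM (log2 fold change 0.69, standard error 0.0944, adjusted p = 0.0159), and Ifitm3, a membrane protein that blocks viral fusion, at 124 and 137 against 189.6 and 181 CPM (log2 fold change 0.51, standard error 0.103, adjusted p = 0.0327). Of 24 genes of antigen processing and MHC class I, 1 was higher and 0 lower (4.17% against 16.2% of all genes). That one was Tap1, the peptide transporter, at 90.0 and 105 against 204 and 141 CPM (log2 fold change 0.82, adjusted p = 0.0456). The class I gene H2-K1, which shares sequence with other class I genes, stood at 256 and 320.2 against 345 and 301 CPM and did not pass (adjusted p = 0.464), but 22 of the 24 log2 fold changes were above 0, with a median of 0.30. The median was 0.18 without control KD replicate 1 and 0.17 without GSTM1 KD replicate 1, and without control KD replicate 2 it was 0.46 with 9 members higher. The test of whether the GSTM1 KD effect differed between stimulated and unstimulated libraries placed 0 of 15332 genes past the threshold in edgeR, with 295 at an unadjusted p under 0.05.

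Upstream stretches of 3 interferon-stimulated genes chosen as holding a match are shown in the same way (the promoters of Irf7 and Cmpk2 held none), with matches to the core of the interferon-stimulated response element, GAAANNGAAA or its reverse complement, in capitals. Ifit1 is at chr19:34640689-34640888 and Ifit3 at chr19:34583329-34583528 on the plus strand, and Isg15 is at chr4:156200819-156201018 on the minus strand (RefSeq, GRCm38.p6).
Ifit1: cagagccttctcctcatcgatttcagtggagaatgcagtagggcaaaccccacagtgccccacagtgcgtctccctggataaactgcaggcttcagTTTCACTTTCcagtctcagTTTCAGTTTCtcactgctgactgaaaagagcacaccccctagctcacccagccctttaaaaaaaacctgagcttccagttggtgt
Ifit3: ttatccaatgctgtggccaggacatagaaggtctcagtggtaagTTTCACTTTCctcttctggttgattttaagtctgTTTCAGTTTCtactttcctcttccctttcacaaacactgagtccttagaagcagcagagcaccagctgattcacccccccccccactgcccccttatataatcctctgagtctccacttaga
Isg15: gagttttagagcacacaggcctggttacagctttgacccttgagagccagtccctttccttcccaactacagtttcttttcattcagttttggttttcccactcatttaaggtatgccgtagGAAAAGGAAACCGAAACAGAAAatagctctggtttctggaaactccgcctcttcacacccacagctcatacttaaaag
Ifit1 and Ifit3 each held 2 matches and Isg15 held 3 that overlap each other. Over the full windows the core was in 14 of 26 promoters (53.8%) of the 22 higher interferon-stimulated effectors that had one, in 3.11% of the promoters of genes tested and in 5.14% of those of all higher genes. It was in 0 of the 22 promoters of the lower inflammatory genes described above. As before, a match describes the letters only, and the genes were picked from these data. The list was chosen as interferon-stimulated genes, and the share among its members that did not pass was not computed. The shares therefore do not bear on GSTM1 KD.

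**Figure D3:**
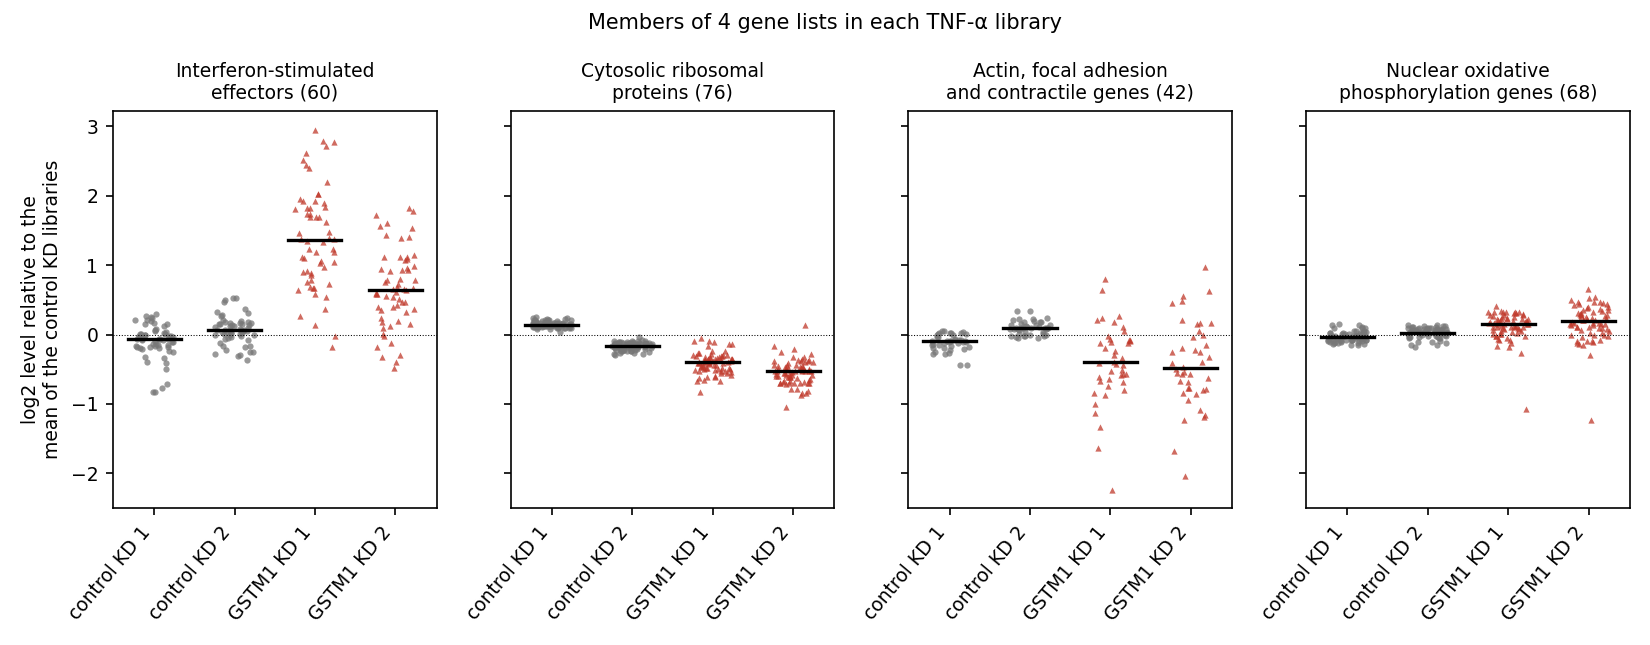
Level of each tested member of 4 gene lists in the 4 TNF-α libraries, as log2 of CPM relative to the mean of the control KD libraries (vertical axis), with grey circles for control KD, red triangles for GSTM1 KD and a black bar at each library's median. The medians of the interferon-stimulated effectors are 1.36 and 0.65 in GSTM1 KD replicates 1 and 2, and those of the ribosomal protein genes -0.40 and -0.53.

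The counts of astrocyte identity genes depended on the control KD library used. Of 36 tested, 0 were higher and 2 were lower, 5.56% against 16.2% of all genes, with a median of 0.23. With control KD replicate 2 left out 21 were higher and 3 lower (median 0.67), with replicate 1 left out 4 and 7 (median -0.02), and in DESeq2 5 and 4. Gfap, the intermediate filament of reactive astrocytes, stood at 922 and 2866 CPM in control KD and 2928 and 5087 CPM in GSTM1 KD (log2 fold change 1.08, adjusted p = 0.218). Aldh1l1, a folate enzyme and astrocyte marker, stood at 73.9 and 192 against 292 and 329 CPM (log2 fold change 1.22, adjusted p = 0.102), and Glul, glutamine synthetase, at 283 and 454 against 608 and 743 CPM (log2 fold change 0.88, adjusted p = 0.0646). In these 3 genes the control KD replicates differed more from each other, in CPM, than control KD replicate 2 did from GSTM1 KD replicate 1. Gja1, connexin 43, stood at 265 and 264 against 264 and 289 CPM (adjusted p = 0.685). The lower members were S100b, a calcium-binding protein, at 5.82 and 10.01 against 2.85 and 1.91 CPM (log2 fold change -1.71, adjusted p = 0.0387), and Nfib, a transcription factor of gliogenesis, at 485 and 375 against 276 and 262 CPM (log2 fold change -0.68, adjusted p = 0.0405). Of 35 reactive astrocyte genes 8 were lower (22.9% against 8.92% of all genes) and 1 higher, with a median of -0.36. Leaving out control KD replicate 2 gave 14 lower and 8 higher (median -0.20). They included Timp1, Ptgs2, Clcf1 and Cd44, which other lists here also hold, and Serpina3n, at 87.4 and 82.1 against 54.4 and 39.4 CPM (log2 fold change -0.85, adjusted p = 0.0303). Lcn2, at 55.4 and 154 against 64.3 and 61.6 CPM, did not pass (adjusted p = 0.289). Vim, vimentin, stood at 5950.3 and 8143 against 7159 and 7269 CPM (adjusted p = 0.918). Olig2, a transcription factor of the oligodendrocyte lineage that some astrocytes also express, was lower at 97.6 and 108 against 46.4 and 47.1 CPM (log2 fold change -1.14, standard error 0.10, adjusted p = 0.0101). Of 12 markers of that lineage 7 were tested and 2 were lower, 28.6% against 8.92% of all genes. Their summed level was 621 and 727 CPM in control KD and 532 and 524 CPM in GSTM1 KD. Mog, which encodes a myelin protein, was at 0 counts in all 4 libraries. In bulk RNA fewer cells of a type and less RNA per cell cannot be told apart.

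Genes of the actin cytoskeleton and of focal adhesions were lower where they passed, with 1 exception. Of 42 tested, 16 were lower and 1 higher, 38.1% lower against 8.92% of all genes, with a median of -0.45 (-0.29 without control KD replicate 2, where 19 were lower and 5 higher). Tns3, a tensin that ties integrins to actin, stood at 595 and 578 CPM in control KD and 188 and 182 CPM in GSTM1 KD (log2 fold change -1.67, standard error 0.105, adjusted p = 0.00981). Zyx, zyxin, a sensor of tension at adhesions, stood at 178 and 176 against 88.1 and 78.9 CPM (log2 fold change -1.08, standard error 0.103, adjusted p = 0.0105). The filamins, which cross-link actin, were lower, with Flna at 2810.0 and 3186 against 1791 and 1753 CPM (log2 fold change -0.76, adjusted p = 0.0256) and Flnc at 771 and 1108 against 371 and 401 CPM (log2 fold change -1.28, adjusted p = 0.0187). Tagln (SM22α) stood at 2428 and 2263 against 1306 and 1030.1 CPM (log2 fold change -1.01, adjusted p = 0.0201), Acta2 (smooth muscle actin) at 2751 and 2789.9 against 1599 and 1302 CPM (log2 fold change -0.93, adjusted p = 0.0208), and Myh9, the heavy chain of non-muscle myosin IIA, at 1146 and 1156 against 734 and 714 CPM (log2 fold change -0.67, adjusted p = 0.0222). Actg2, the enteric smooth muscle actin, showed the largest fold change of the list, at 15.8 and 19.2 against 3.31 and 3.87 CPM (log2 fold change -2.29, standard error 0.209, adjusted p = 0.0105). The higher member was Tln2, talin 2, at 139 and 134 against 238 and 268 CPM (log2 fold change 0.89, standard error 0.108, adjusted p = 0.0129). Acta2 and Tagln are also markers of mural cells. Of 12 such markers 7 were tested, with 2 lower and 1 higher (28.6% and 14.3% against 8.92% and 7.26% of all genes). Their summed level was 5320.3 and 5259 CPM in control KD and 3098 and 2552 CPM in GSTM1 KD, and Higd1b was at 0 in all libraries. Acta2 and Tagln made up most of that sum. The other mural markers summed to 141 and 206 against 193 and 219.6 CPM, with 0 of 5 tested lower and 1 higher.

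Of 18 integrin subunits tested, 5 were lower and 0 higher (27.8% lower against 8.92% of all genes, counts of 4 and 0 with control KD replicate 1 left out and of 6 and 2 with replicate 2 left out). Itga5, the α subunit of the fibronectin receptor, stood at 559 and 676 CPM in control KD and 159.8 and 191 CPM in GSTM1 KD (log2 fold change -1.81, standard error 0.156, adjusted p = 0.00981), the largest fold change of the list. Itga3, a laminin receptor subunit, was lower by less, at 331 and 317 against 229.8 and 224 CPM (log2 fold change -0.51, adjusted p = 0.0293). Targets and partners of YAP and TAZ, the coactivators that respond to cell spreading, gave 7 lower and 0 higher of 25 tested (28% lower against 8.92% of all genes), with a median of -0.46, or -0.28 without control KD replicate 1. The lower and higher targets gave counts of 9 and 1 with control KD replicate 1 left out and of 12 and 0 with replicate 2 left out. Igfbp3, an IGF-binding protein, is given above. Axl, the receptor tyrosine kinase for Gas6, stood at 574 and 544 against 247 and 219 CPM (log2 fold change -1.27, standard error 0.117, adjusted p = 0.0105), and Cyr61, a matricellular protein, at 2064 and 1848 against 1108 and 1113 CPM (log2 fold change -0.82, standard error 0.128, adjusted p = 0.0193). The DNA-binding partners Tead1 and Tead2 were themselves lower, at 506 and 549 against 289.7 and 295 CPM and 32.0 and 31.4 against 15.3 and 14.5 CPM (-0.85 and -1.09). In each of these the 2 values of a group were close and the groups apart. F3, tissue factor, was lower at 592 and 546 against 297 and 215 CPM (log2 fold change -1.15, adjusted p = 0.0190).

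Genes of extracellular proteolysis moved in both directions. Of the plasminogen activators, serpins and coagulation genes, 6 of 19 were lower and 2 higher (31.6% lower and 10.5% higher, against 8.92% and 7.26% of all genes, and counts of 6 and 4 with control KD replicate 1 left out and of 9 and 3 with replicate 2 left out). Plau, urokinase, stood at 60.6 and 50.7 CPM in control KD and 16.2 and 17.5 CPM in GSTM1 KD (log2 fold change -1.73, standard error 0.138, adjusted p = 0.00981), and its receptor Plaur at 26.1 and 21.03 against 8.11 and 9.59 CPM (log2 fold change -1.42, standard error 0.185, adjusted p = 0.0144). The enzyme and its receptor were both lower, each without overlap. Serpini1, neuroserpin, was higher at 1.68 and 1.85 against 10.9 and 11.6 CPM (log2 fold change 2.67, standard error 0.224, adjusted p = 0.00981). Of the metalloproteinases and their inhibitors, 11 of 37 were lower and 4 higher (29.7% and 10.8% against 8.92% and 7.26%). Mmp12, macrophage elastase, had counts of 58 and 14 in control KD against 0 and 1 in GSTM1 KD (adjusted p = 0.0281), no fold is given at these counts, and its call ended in limma on log2(TPM + 1). As for Irf8 and Nlrp3, the part of microglial transcripts in this decrease was not tested. Adamts1, an aggrecanase, stood at 361 and 363 against 142 and 119.7 CPM (log2 fold change -1.46, standard error 0.124, adjusted p = 0.00981), Adam19 at 51.9 and 51.1 against 18.1 and 21.4 CPM (log2 fold change -1.39, standard error 0.128, adjusted p = 0.0105) and Mmp3, stromelysin 1, at 89.8 and 86.8 against 47.7 and 29.5 CPM (log2 fold change -1.19, adjusted p = 0.0279). The inhibitors differed among themselves, with Timp1 lower at 189 and 149 against 64.7 and 49.1 CPM (log2 fold change -1.57, standard error 0.183, adjusted p = 0.0122) and Timp3 higher at 907 and 891 against 1502 and 1448 CPM (log2 fold change 0.71, standard error 0.116, adjusted p = 0.0205). Mmp15, a membrane-anchored protease gene, was higher (1.19).

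Of 32 collagen genes tested, 4 were higher and 2 lower (18.8% against 16.2%). With control KD replicate 1 left out there were 5 and 5 (median -0.14), and with replicate 2 left out 9 and 2 (median 0.38). Col1a2 stood at 129 and 159 CPM in control KD and 62.7 and 82.9 CPM in GSTM1 KD (log2 fold change -0.99, adjusted p = 0.0250) and Col5a2 at 503 and 470.2 against 902 and 993 CPM (log2 fold change 0.96, standard error 0.120, adjusted p = 0.0132). Col1a1, the partner chain of Col1a2, stood at 104 and 189 against 67.2 and 145 CPM, and its replicates overlapped between groups (adjusted p = 0.474). Of 53 matrix glycoproteins and proteoglycans, 8 were lower and 3 higher (15.1% and 5.66% against 8.92% and 7.26%, counts of 13 and 3 with control KD replicate 1 left out and of 12 and 11 with replicate 2 left out). Fbln2, fibulin 2, stood at 117 and 84.2 against 35.2 and 46.0 CPM (log2 fold change -1.31, adjusted p = 0.0193), and Has2, hyaluronan synthase 2, at 101 and 111 against 51.9 and 25.6 CPM (log2 fold change -1.45, adjusted p = 0.0387). Leaving out GSTM1 KD replicate 1 gave a log2 fold change of -2.04 for Has2. Sdc2, syndecan 2, and Lamb2, laminin β2, were higher (0.66 and 0.81). Fibroblast and meningeal markers, which include Col1a1 and Col1a2, summed to 359.6 and 564 CPM in control KD and 329 and 443 CPM in GSTM1 KD, with 10 of 12 tested and none at 0 in all libraries. Of these 10, 3 were lower and 1 higher (30% and 10% against 8.92% and 7.26%). Without Col1a1 and Col1a2 the sum was 127 and 215.6 against 199 and 215.2 CPM, with 2 lower and 1 higher of 8 tested. Their part in the matrix genes was not tested.

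**Figure D4:**
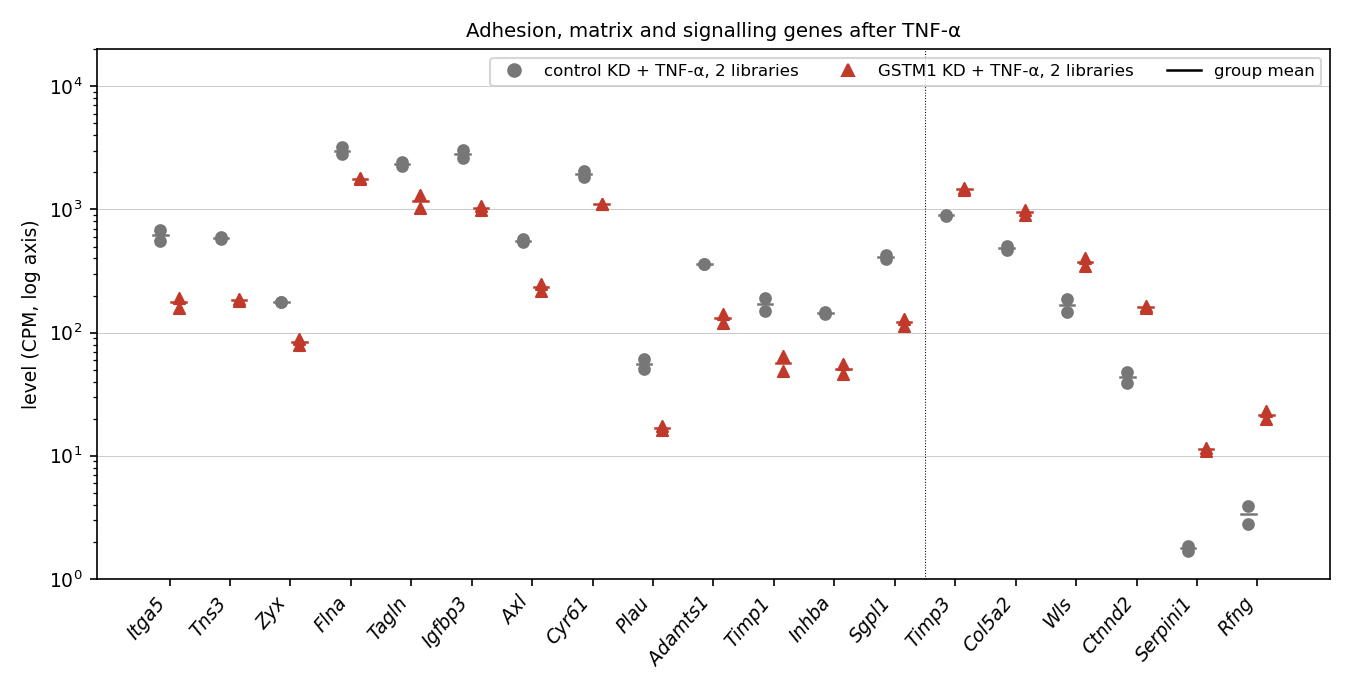
Level in CPM (log axis) of 13 genes lower and, right of the dotted line, 6 genes higher in GSTM1 KD after TNF-α, with grey circles for control KD, red triangles for GSTM1 KD and bars at the group means. Itga5 is at 559 and 676 against 159.8 and 191 CPM and Ctnnd2, which encodes δ-catenin, at 39.0 and 47.6 against 157 and 165 CPM.

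Secreted growth factors included ligands of the EGF receptor and neurotrophic factors. Of 34 tested, 7 were lower and 1 higher (20.6% and 2.94% against 8.92% and 7.26%, counts of 8 and 4 with control KD replicate 1 left out and of 11 and 6 with replicate 2 left out). In DESeq2 10 were lower and 4 higher. Of the EGF receptor ligands, Ereg, epiregulin, stood at 25.97 and 24.5 CPM in control KD and 5.85 and 6.96 CPM in GSTM1 KD (log2 fold change -1.98, standard error 0.164, adjusted p = 0.00981), and Hbegf, heparin-binding EGF, at 1151 and 1130.5 against 684 and 653 CPM (log2 fold change -0.77, standard error 0.113, adjusted p = 0.0177). Gdnf, a survival factor of dopaminergic neurons, stood at 15.9 and 7.57 against 4.26 and 3.20 CPM (log2 fold change -1.65, adjusted p = 0.0473), with control KD replicate 1 above replicate 2, and its call ended in limma on log2(TPM + 1). Without control KD replicate 1 the log2 fold change was -1.01 for Gdnf. Bdnf, at 72.0 and 44.2 against 33.1 and 35.4 CPM, and Vegfa, at 51.7 and 41.5 against 33.9 and 31.5 CPM, did not pass (adjusted p = 0.0788 and 0.0635). The higher factor was Pdgfd (1.17). In the TGF-β and BMP pathways, 7 of 44 were lower and 4 higher (15.9% and 9.09% against 8.92% and 7.26%, counts of 9 and 4 with control KD replicate 1 left out and of 9 and 10 with replicate 2 left out). The ligand gene Inhba, which encodes the subunit of activin A, was lower at 148 and 143 against 45.9 and 55.2 CPM (log2 fold change -1.53, standard error 0.121, adjusted p = 0.00981), and the ligand gene Tgfb3 was higher at 58.6 and 93.1 against 189 and 188 CPM (log2 fold change 1.32, standard error 0.220, adjusted p = 0.0221). Tgfb1, at 60.6 and 62.0 against 57.7 and 40.4 CPM, did not pass (adjusted p = 0.251). The latency proteins Ltbp1 and Ltbp2 went opposite ways (0.63 and -0.75), and Id4, a target of BMP signalling, was higher (0.97) except in the fit of all 8 libraries.

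WNT, Notch and Hedgehog genes gave calls on both sides. Of 44 WNT pathway genes tested, 10 were higher and 5 lower (22.7% higher and 11.4% lower, against 7.26% and 8.92% of all genes, and counts of 9 and 8 with control KD replicate 1 left out and of 15 and 8 with replicate 2 left out). Wls, the carrier of WNT proteins in secretion, stood at 147 and 189 CPM in control KD and 349 and 401 CPM in GSTM1 KD (log2 fold change 1.16, standard error 0.158, adjusted p = 0.0156), and Porcn, the acyltransferase that modifies them, at 11.4 and 13.3 against 23.97 and 24.3 CPM (log2 fold change 0.97, standard error 0.147, adjusted p = 0.0187). Of the ligands, Wnt5b was higher (0.67), and Wnt11 and Wnt9a were lower (-1.75 and -0.93). The receptor genes Fzd2 and Fzd8 were higher (0.69 and 0.49). In the nucleus Tcf7 was lower at 37.6 and 39.1 against 19.9 and 20.1 CPM (log2 fold change -0.94, standard error 0.113, adjusted p = 0.0129). Axin2, the usual readout of β-catenin activity, stood at 28.6 and 24.4 against 23.02 and 21.3 CPM and did not pass (adjusted p = 0.233). Of 23 Notch pathway genes 3 were higher and 2 lower (21.7% against 16.2%, and counts of 3 and 4 with control KD replicate 1 left out and of 4 and 3 with replicate 2 left out). Rfng, radical fringe, a glycosyltransferase that modifies Notch, was higher at 3.93 and 2.80 against 19.8 and 23.2 CPM (log2 fold change 2.66, standard error 0.228, adjusted p = 0.00981), and Hey1, a target, at 37.5 and 35.1 against 56.6 and 63.3 CPM (log2 fold change 0.72, adjusted p = 0.0189). Rbpj, the DNA-binding partner of Notch, was lower at 208 and 192 against 124 and 127 CPM (log2 fold change -0.67, standard error 0.0993, adjusted p = 0.0178). Of 12 Hedgehog pathway genes 1 was higher and 1 lower (16.7% against 16.2%, and counts of 1 and 2 with control KD replicate 1 left out and of 3 and 1 with replicate 2 left out). Shh, the Hedgehog ligand, was lower at 44.0 and 59.0 against 18.9 and 19.97 CPM (log2 fold change -1.40, standard error 0.171, adjusted p = 0.0129), and its co-receptor Cdon was higher at 23.3 and 24.3 against 52.5 and 60.6 CPM (log2 fold change 1.25, standard error 0.121, adjusted p = 0.0105).

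Genes of glutathione use and targets of NRF2, the factor of the electrophile response, are the closest in function to Gstm1. Of 17 glutathione S-transferase genes tested, Gstm1 included, 2 were lower and 1 higher (counts of 3 and 1 with control KD replicate 1 left out and of 3 and 5 with replicate 2 left out). Together these calls, that of Gstm1 itself among them, were 17.6% of those tested, against 16.2% of all genes. Beside Gstm1 they were Gsto1, lower (-1.14), and Gsta4, higher (0.58). The second call ended with effective lengths as offsets. Of 46 genes of glutathione metabolism and NRF2 targets, 5 were lower and 1 higher, 13.0% in all against 16.2% (counts of 9 and 3 with control KD replicate 1 left out and of 9 and 6 with replicate 2 left out). Ftl1, the ferritin light chain, stood at 1151 and 959 CPM in control KD and 349.7 and 320.5 CPM in GSTM1 KD (log2 fold change -1.65, standard error 0.142, adjusted p = 0.00981). Hmox1, heme oxygenase 1, stood at 353 and 259 against 163 and 141 CPM (log2 fold change -1.01, standard error 0.177, adjusted p = 0.0245), and Txnrd1, cytosolic thioredoxin reductase, at 987 and 663 against 443 and 408 CPM (log2 fold change -0.96, standard error 0.206, adjusted p = 0.0376). Control KD replicate 1 was above replicate 2 in these 3, and both were above GSTM1 KD. Abcc1, which exports glutathione conjugates, stood at 140.2 and 141 against 88.9 and 88.8 CPM (log2 fold change -0.66, standard error 0.0891, adjusted p = 0.0152). The NRF2 gene Nfe2l2, at 397 and 443 against 501 and 470.5 CPM, and its target Nqo1, at 5.65 and 5.72 against 5.62 and 4.21 CPM, did not pass (adjusted p = 0.246 and 0.586). The higher member was Gpx8 (0.41).

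Among heat shock genes 4 of 18 were lower and 1 higher (22.2% lower and 5.56% higher, against 8.92% and 7.26% of all genes, counts of 4 and 0 with control KD replicate 1 left out and of 5 and 4 with replicate 2 left out). Hspb1 (HSP27) stood at 69.3 and 125 CPM in control KD and 28.3 and 28.9 CPM in GSTM1 KD (log2 fold change -1.76, standard error 0.278, adjusted p = 0.0197), Cryab (αB-crystallin) at 548 and 484 against 252 and 246 CPM (log2 fold change -1.05, standard error 0.116, adjusted p = 0.0112), and the master regulator Hsf1 at 38.3 and 36.6 against 21.9 and 17.8 CPM (log2 fold change -0.91, standard error 0.145, adjusted p = 0.0197). Of the 35 genes of the unfolded protein and integrated stress responses, 3 were lower and 0 higher (8.57% lower against 8.92%), Xbp1 among them (-0.65), with counts of 3 and 1 with control KD replicate 1 left out and of 16 and 2 with replicate 2 left out. Hspa5 (BiP), at 575 and 587 against 623 and 686 CPM, did not pass (adjusted p = 0.329). Of 25 p53 targets, 3 were lower and 1 higher, 16.0% against 16.2% of all genes (counts of 5 and 1 with control KD replicate 1 left out and of 8 and 3 with replicate 2 left out). Gdf15, a stress hormone, stood at 27.7 and 25.1 against 7.34 and 6.11 CPM (log2 fold change -1.97, standard error 0.168, adjusted p = 0.00981), Sesn1 was higher (0.93), and Cdkn1a (p21), at 560.4 and 491 against 369 and 412 CPM, did not pass (adjusted p = 0.0731). Apoptosis genes gave 3 higher and 2 lower of 25, 20% against 16.2% (counts of 3 and 4 with control KD replicate 1 left out and of 8 and 2 with replicate 2 left out). Bak1, an executor of mitochondrial permeabilization, was higher at 44.6 and 42.3 against 77.0 and 73.3 CPM (log2 fold change 0.79, standard error 0.0964, adjusted p = 0.0129), and Mcl1, which opposes it, was lower at 242 and 275 against 184 and 165 CPM (log2 fold change -0.57, adjusted p = 0.0345). The call of Xbp1 ended in limma on log2(TPM + 1).

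Ribosomal protein genes had small differences of 1 direction. Of 76 tested, 21 were lower and 0 higher (27.6% lower against 8.92% of all genes), 75 had a negative log2 fold change, and the median was -0.46. Their summed level was 31966 and 26075 CPM in control KD and 21639.7 and 19586 CPM in GSTM1 KD. The count of lower members was 45 with DESeq2, 11 with library size only and 2 in limma on log2(TPM + 1), and without control KD replicate 2 it was 70. Control KD replicate 1 was above replicate 2 for all 76. Rpsa, a protein of the small subunit, stood at 1076 and 943 CPM in control KD and 566 and 487 CPM in GSTM1 KD (log2 fold change -0.94, standard error 0.140, adjusted p = 0.0180), and Rps13 at 218 and 177 against 128 and 114 CPM (log2 fold change -0.71, standard error 0.138, adjusted p = 0.0303). Many ribosomal protein genes have processed pseudogenes that can take reads. Transcripts of the mitochondrial genome went the other way, with 10 of 15 tested higher, 0 lower and a median of 0.62. Of all genes tested 7.26% were higher. The share of all counts on the mitochondrial genome was 1.34% and 1.21% in the control KD libraries against 1.99% and 1.95% in those of GSTM1 KD. The complex I gene mt-Nd4 stood at 1176 and 1262 against 2021 and 2033 CPM (log2 fold change 0.73, standard error 0.123, adjusted p = 0.0223), mt-Cytb, a complex III gene, at 1358 and 1399.6 against 2093 and 2135 CPM (log2 fold change 0.62, adjusted p = 0.0303), and the 16S rRNA gene mt-Rnr2 at 1043 and 911 against 2495 and 1617 CPM (log2 fold change 1.07, adjusted p = 0.0371). The call of mt-Cytb ended in limma on log2(TPM + 1). The nuclear genes of oxidative phosphorylation gave 3 higher and 1 lower of 68 tested, 5.88% against 16.2%, with 56 above 0 and a median of 0.17 (without control KD replicate 2 15 higher and 1 lower). The lower one was Cyc1, cytochrome c1 of complex III, at 186 and 174 against 85.0 and 76.5 CPM (log2 fold change -1.16, standard error 0.106, adjusted p = 0.0105). The mitochondrial share is also used as a sign of RNA quality. Its part in the other results was not tested.

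Genes of lipid and energy metabolism differed in both directions. Of 33 cholesterol genes, 5 were higher and 2 lower (21.2% against 16.2% of all genes), with a median of 0.42. Leaving out control KD replicate 2 gave 23 higher and 2 lower, and leaving out replicate 1 a median of 0.25. Mvk, mevalonate kinase, stood at 19.2 and 21.7 CPM in control KD and 28.7 and 30.9 CPM in GSTM1 KD (log2 fold change 0.54, adjusted p = 0.0471), a call that ended with effective lengths as offsets. Of 22 genes of fatty acid synthesis 2 were higher and 2 lower, 18.2% of those tested (counts of 2 and 3 with control KD replicate 1 left out and of 10 and 3 with replicate 2 left out). Fasn, fatty acid synthase, stood at 238 and 249.8 against 358 and 486 CPM (log2 fold change 0.79, adjusted p = 0.0352), Acss2, which makes acetyl-CoA from acetate, at 16.6 and 25.4 against 57.5 and 76.1 CPM (log2 fold change 1.67, standard error 0.244, adjusted p = 0.0177), and Hsd17b12, a reductase of fatty acid elongation, was lower at 228 and 253 against 96.8 and 98.3 CPM (log2 fold change -1.30, standard error 0.104, adjusted p = 0.00981). Of 34 genes of fatty acid oxidation, 2 were higher and 1 lower (8.82% against 16.2%, counts of 2 and 2 with control KD replicate 1 left out and of 16 and 1 with replicate 2 left out). Ppargc1a, the coactivator PGC-1α that drives mitochondrial biogenesis, was higher at 23.6 and 29.6 against 46.2 and 52.1 CPM (log2 fold change 0.89, standard error 0.151, adjusted p = 0.0229). Cpt1a, the rate-limiting enzyme of entry into mitochondria, stood at 106 and 152 against 173 and 229 CPM (adjusted p = 0.0967). Of 21 glycolysis genes 2 were higher and 1 lower, 14.3% against 16.2% of all genes. Ldhb, lactate dehydrogenase B, and Slc16a1, the lactate carrier MCT1, were higher, at 285 and 498 against 778 and 954 CPM and 152 and 253 against 427 and 473 CPM (1.14 and 1.15), and Hk2, hexokinase 2, was lower (-0.47). The call of Hk2 ended in limma on log2(TPM + 1).

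Proliferation genes differed between the replicates of GSTM1 KD. Of 36 cell cycle genes 1 was lower and 0 higher (2.78% against 16.2% of all genes), and of 40 DNA replication genes 0 passed in edgeR, with 2 at an unadjusted p under 0.05 and 1 passing as lower in DESeq2. The lower cell cycle gene was Ccne1, cyclin E1, at 22.8 and 18.9 CPM in control KD and 7.52 and 5.89 CPM in GSTM1 KD (log2 fold change -1.64, standard error 0.201, adjusted p = 0.0130). GSTM1 KD replicate 1 was above replicate 2 for all 36 cell cycle genes, with a median ratio of 1.63, and for all 40 DNA replication genes, with a median ratio of 1.37. The summed level of the cell cycle genes was 807 and 913 CPM in control KD and 1113 and 651 CPM in GSTM1 KD, so the GSTM1 KD libraries lay on either side of control KD. Mki67, a marker of cycling cells, stood at 65.7 and 81.5 against 104 and 54.6 CPM (adjusted p = 0.814). Replicate 1 was thus the GSTM1 KD library with more of both the proliferation and the interferon-stimulated transcripts. Whether one bears on the other was not tested.

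**Figure D5:**
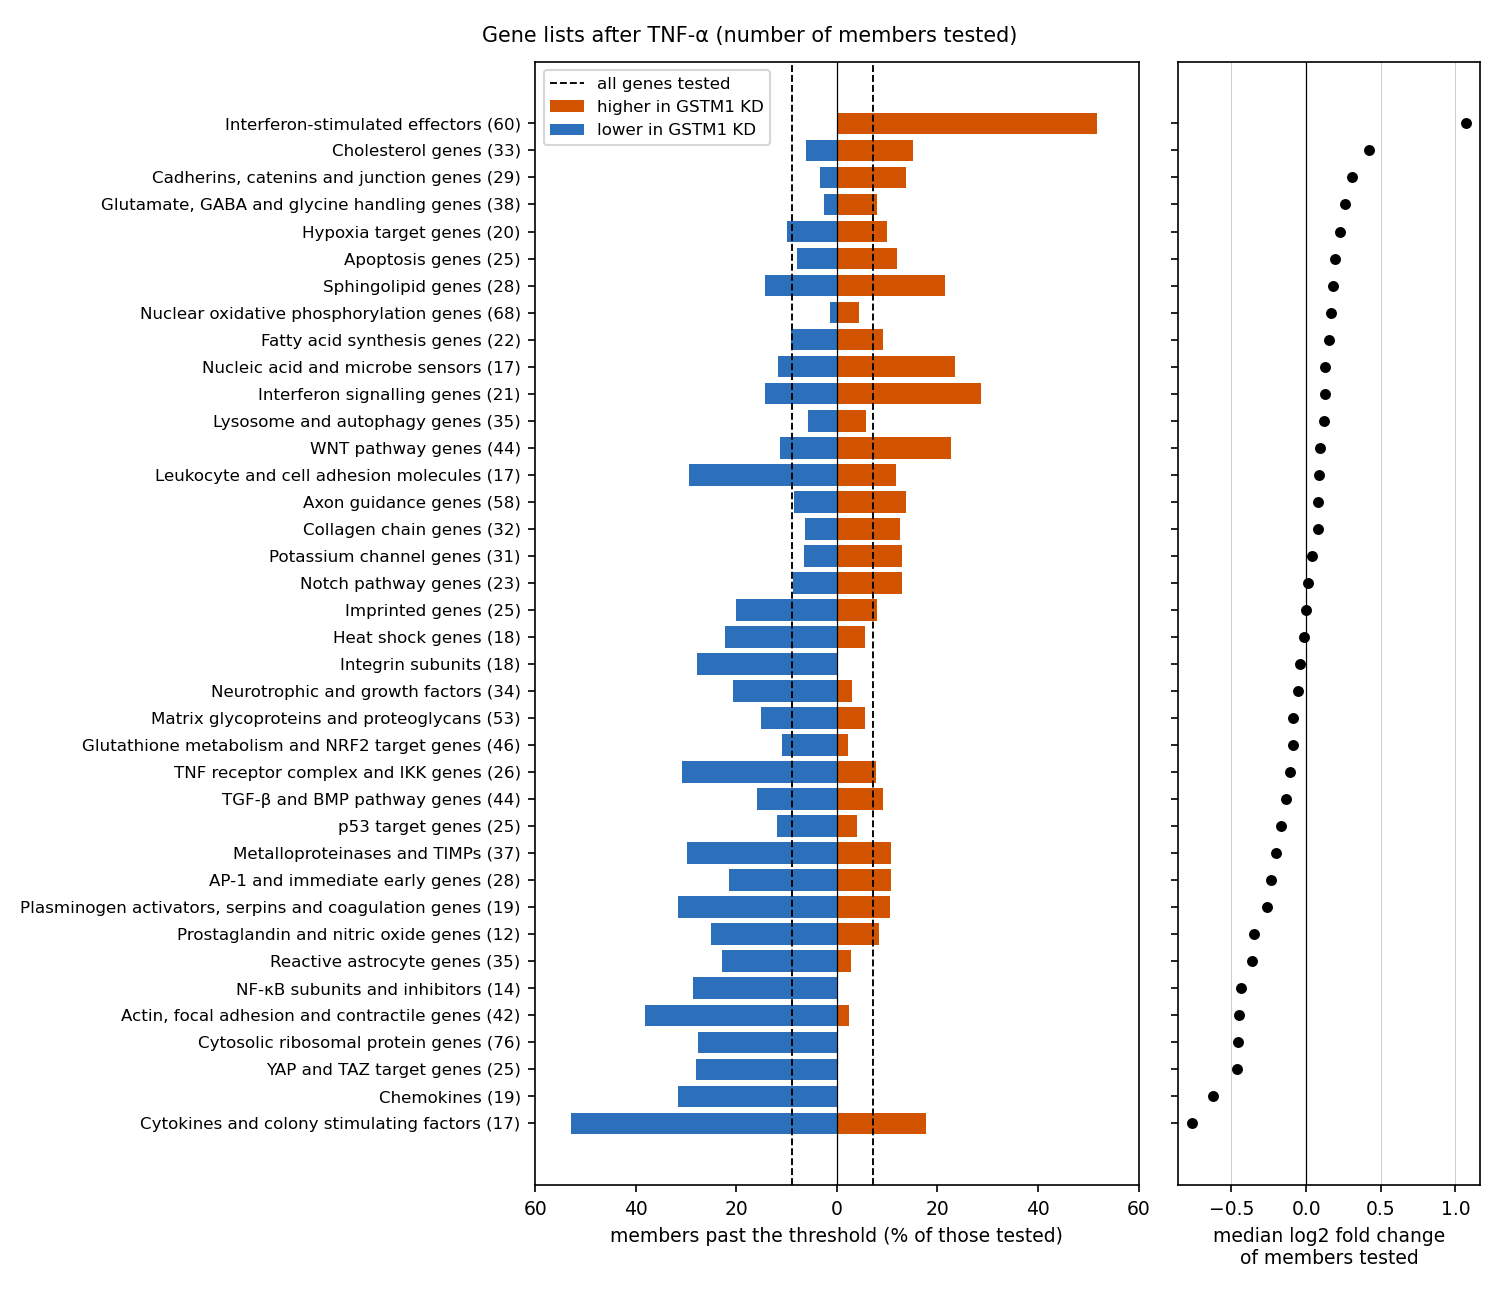
Members past the adjusted threshold as a percentage of those tested (left, orange for higher and blue for lower in GSTM1 KD) and the median log2 fold change of the members tested (right) for the 38 gene lists with at least 12 members tested and 4 called. Dashed lines mark the shares over all genes tested, 7.26% higher and 8.92% lower, and the lists, ordered by that median, run from the interferon-stimulated effectors at the top to the cytokines at the bottom.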

How the data were processed

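Total RNA of 8 cultures, 2 in each group, was sequenced, and the 4 TNF-α libraries (50 ng/ml, 6 h) were compared. The authors made directional libraries, aligned paired-end reads to GRCm38 with STAR 2.5.4b per the labels and deposited expected counts and TPM per gene from RSEM 1.3.0, the TPM values scaled to the same total in each library. RSEM divides reads that match several genes among them, so values of near-identical genes are estimates. The annotation version is not given in the sources used here. Names and positions came from the files and from GENCODE M21 on GRCm38.

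Expected counts were rounded and tested in edgeR 4.0.16 (R 4.3.3) with TMM factors, its default filter by group, the quasi-likelihood test and Benjamini-Hochberg adjustment over 14593 genes, with a threshold of 0.05. The study's own test, DESeq2 (1.42.0 here), was an alternative, as were DESeq2 size factors, library size only, a replicate block, no filter or a minimum of 10 counts in each library, effective lengths as offsets, a fit of all 8 libraries, limma 3.58.1 on log2(TPM + 1) and log2(TPM + 0.1), and each library left out. A group of 2 against 2 cannot go below p = 0.333 in an exact permutation test, so none is given. On simulated counts 57 of 100 genes changed 2-fold and 89 of 100 changed 4-fold were recovered. Beside these recovered genes stood 18 false calls, among 14368 genes tested. Each gene was drawn independently, whereas whole gene lists differed together between replicates here. The simulation therefore does not show how the test behaves on these data. Library totals ran from 17349676 to 23019519.

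The comparison and the 60 gene lists were chosen with earlier results of these data known. Genes were named by rule: Gstm1, the 10 with the largest called fold change each way at a mean of at least 1 CPM, the 5 with the largest called difference in CPM each way, both without overlap between groups, up to 4 called members of each list by p in each direction, and further list members needed to describe a pathway. Tnfaip2 and Sorl1 fall outside it, and some genes that the rule names are not reported here. A bound against a group at 0 uses 3 counts in each library. Promoter windows came from RefSeq (GRCm38.p6).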

Additional observations from a re-analysis of the deposited data

How the results depend on the processing

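The 2360 calls, 1059 higher and 1301 lower, became 4540 (2167 and 2373) with no filter, 1565 (866 and 699) in limma on log2(TPM + 1) and 1558 (860 and 698) on log2(TPM + 0.1). Leaving out 1 library gave 0 to 5028 calls, 0 to 2551 higher and 0 to 2477 lower, with 0 without GSTM1 KD replicate 1 (edgeR; 3273 at an unadjusted p under 0.05) and 94 without GSTM1 KD replicate 2, where the lone library is assumed to vary like the other group. The other alternatives, apart from the replicate block below, gave 1976 to 3116 calls. Wherever an alternative made calls, each gene it shared with the 2360 kept its direction. The log2 fold change of Gstm1 ran from -4.05 to -3.16 when each library was left out, and it was called in 3 of these 4 fits.

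The replicate numbers are not shown to pair the samples: over the 2 pairs the deviations of equal numbers correlated at 0.285, and what a number marks is not stated. With the replicate block 4302 genes passed, 2064 higher and 2238 lower, including all 2360. Of 36 astrocyte identity genes tested 12 were then higher and 5 lower, and of 33 cholesterol genes 17 and 3. The background in that fit was 4302 calls among 14593 genes tested, more than the 2360 of the main fit.

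Of the 209 called genes named in the text, the call of 9 ended in the fit of all 8 libraries, of 10 with effective length offsets, of 25 and 23 in limma with a pseudocount of 1 and 0.1, of 1 in DESeq2, which gave 2 no adjusted p, and of none of those tested in the other fits of all 4 libraries, among which the filter of at least 10 counts in every library left 15 of the called genes untested. The calls of 198 and 209 were kept without control KD replicate 1 or 2, and of 0 and 36 without GSTM1 KD replicate 1 or 2. None reversed. The cause of the lost calls was not tested.

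Some values that did not pass changed sign. The log2 fold change of Axin2 was 0.11 with effective length offsets and 0.16 and 0.17 in limma. In limma it was 0.013 for Nfkbia and 0.020 for Tnfrsf1a at both pseudocounts. When each library was left out it ran from -0.17 to 0.074 for Tnfrsf1a, -0.13 to 0.020 for Nfkbia, -0.036 to 0.21 for Irf1, -0.12 to 0.22 for Myd88, -1.29 to 0.19 for Lcn2, -0.18 to 0.29 for Vim, -1.12 to 0.043 for Col1a1 and -0.42 to 0.51 for Mki67. Changes in these genes, and in genes with at most 3 counts in every library, were not detectable at this depth and number of replicates.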

Other observations

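Of 28 genes of sphingolipid turnover 6 were higher and 4 lower (counts of 8 and 6 with control KD replicate 1 left out and of 11 and 6 with replicate 2 left out), so that 35.7% were called beside 16.2% of all genes tested, a difference that was not tested. Sgpl1, the lyase that breaks down sphingosine 1-phosphate, stood at 397 and 429 CPM in control KD and 129.6 and 113 CPM in GSTM1 KD (log2 fold change -1.77, standard error 0.122, adjusted p = 0.00981, edgeR as in the report), the 2 libraries of each group lying close together. Sphk2, a kinase that makes the same lipid and whose exons overlap those of Dbp on the opposite strand, stood at 49.7 and 39.7 against 17.2 and 15.8 CPM (log2 fold change -1.44, adjusted p = 0.0112), and its receptor gene S1pr2 was lower by less (-0.91). Among the ceramide synthases Cers2, for very long acyl chains, was lower at 234 and 204 against 113 and 99.2 CPM (log2 fold change -1.05, adjusted p = 0.0125), while Cers1, which shares exons with Gdf1, and Cers4 were higher (0.79 and 0.58). Smpd1, acid sphingomyelinase, was higher at 90.5 and 108 against 165 and 183 CPM (log2 fold change 0.81, adjusted p = 0.0190).

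Of 19 clock genes 3 were higher and 0 lower, 15.8% against 16.2% of all genes (counts of 4 and 1 with control KD replicate 1 left out and of 3 and 2 with replicate 2 left out). Dbp stood at 33.1 and 30.1 CPM in control KD and 82.4 and 88.2 CPM in GSTM1 KD (log2 fold change 1.43, adjusted p = 0.00981), Tef at 53.1 and 55.9 against 92.7 and 111 CPM (log2 fold change 0.90, adjusted p = 0.0151) and Per3 at 16.3 and 16.3 against 30.04 and 36.1 CPM (log2 fold change 1.02, adjusted p = 0.0166). Dbp and Tef encode transcription factors of the PAR bZIP family, which are outputs of the clock. Of 25 imprinted genes 5 were lower and 2 higher (20% and 8% against 8.92% and 7.26%, and counts of 5 and 3 with control KD replicate 1 left out and of 6 and 4 with replicate 2 left out). Rian, a noncoding RNA of the Dlk1-Dio3 cluster, stood at 80.6 and 85.1 against 28.7 and 29.95 CPM (log2 fold change -1.50, adjusted p = 0.00981), Plagl1, a zinc finger gene, at 164 and 254 against 64.3 and 62.1 CPM (log2 fold change -1.72, adjusted p = 0.0133) and Grb10, an adaptor that restrains growth signalling, at 58.3 and 35.6 against 14.9 and 17.2 CPM (log2 fold change -1.55, adjusted p = 0.0208). Both control KD libraries of these 3 lay above both GSTM1 KD libraries.

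Genes of neural wiring gave calls in both directions. Of 58 axon guidance genes 8 were higher and 5 lower (22.4% against 16.2%, counts of 10 and 6 with control KD replicate 1 left out and of 20 and 10 with replicate 2 left out). The ephrin receptor genes Epha5, at 22.3 and 27.4 CPM in control KD and 54.6 and 59.9 CPM in GSTM1 KD (log2 fold change 1.21, adjusted p = 0.0122), and Ephb1, at 23.04 and 21.4 against 45.1 and 42.8 CPM (log2 fold change 0.98, adjusted p = 0.0122), were higher. The semaphorins went both ways, Sema5a and Sema3c being higher (1.54 and 0.95) and Sema7a lower (-1.15), with the netrin receptor gene Unc5b also lower (-1.07). Of 29 junction genes 4 were higher and 1 lower (17.2% against 16.2%, counts of 4 and 3 with control KD replicate 1 left out and of 13 and 5 with replicate 2 left out), and Ctnnd2, δ-catenin, stood at 39.0 and 47.6 against 157 and 165 CPM (log2 fold change 1.90, standard error 0.128, adjusted p = 0.00981). Of 31 potassium channel genes 4 were higher and 2 lower (19.4% against 16.2%), with a median of 0.04. Kcnc4, at 0.604 and 0.834 against 5.12 and 3.98 CPM (log2 fold change 2.67, adjusted p = 0.0145), and Kcnk1, at 14.3 and 16.5 against 28.8 and 35.2 CPM (log2 fold change 1.06, adjusted p = 0.0189), were higher. Kcnk3, described with the largest decreases, was lower (-2.88). Tfeb, the master regulator of lysosome genes, was higher at 6.38 and 6.55 against 14.5 and 20.6 CPM (log2 fold change 1.43, adjusted p = 0.0195), and 2 of 35 lysosome and autophagy genes were higher in all and 2 lower (11.4% against 16.2%, counts of 2 and 4 with control KD replicate 1 left out and of 12 and 5 with replicate 2 left out). Of 20 hypoxia targets 2 were higher and 2 lower (20% against 16.2%). Adm, adrenomedullin, was lower at 32.6 and 21.4 against 7.11 and 8.36 CPM (log2 fold change -1.81, adjusted p = 0.0156) and Egln3, an oxygen-sensing hydroxylase, higher at 16.6 and 24.2 against 42.4 and 51.7 CPM (log2 fold change 1.21, adjusted p = 0.0250).

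Antisense and lincRNA genes had more higher than lower calls, and protein-coding genes more lower than higher ones. Not every noncoding class had more higher calls, as processed pseudogenes gave 3 higher and 7 lower of 210 tested. Of 278 antisense genes tested 21 were higher and 3 lower, and of 284 lincRNA genes 15 were higher and 5 lower, against 996 higher and 1278 lower of 13263 protein-coding genes. In the same order 8.63%, 7.04% and 17.2% passed. These shares and splits were not tested against each other, and the part that count depth plays in them was not tested.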
